A study of Mus musculus with 4 samples.

Results

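The genes described here are 38 interferon-stimulated genes, of the 31053 genes measured. They were chosen by name, as genes known to be induced by interferons. Earlier results of these data were known when the list was made. Of the 38, 31 are genes that respond to type I interferons and 7 are gamma-type genes, the guanylate-binding proteins and immunity-related GTPases (Gbp2, Gbp3, Gbp5, Gbp7, Irgm1, Igtp and Iigp1) best known for their response to interferon gamma. All 38 symbols were found in each library. Stromal vascular cells, the non-adipocyte cells released when fat is digested, came from subcutaneous fat of female mice. The depots were pooled and their lymph nodes taken out, and the number of animals behind each library is not given in the labels. The 4 groups were Cth+/+ mice and Cth-/- mice, which lack cystathionine gamma-lyase, the enzyme that makes cysteine from cystathionine. Mice of each genotype had a control diet or a diet that the protocol calls cystine free and the sample labels call cysteine free, for 4 days. Each group is 1 library, so there is no replicate check and no test. Intervals are given at 95% and cover counting error alone. What separates 2 libraries cannot be told apart from what separates their diets or genotypes.

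Type I interferons act on a receptor that almost every cell carries. Its signal assembles the complex ISGF3, of which IRF9 is the DNA-binding part. ISGF3 binds a DNA element called the interferon-stimulated response element (ISRE) in the promoters of antiviral genes. Interferon gamma, made mainly by T and NK cells, acts on its own receptor, and its signal reaches promoters through the gamma-activated site (GAS). Many interferon-stimulated genes are also transcribed at a low tonic level in uninfected tissue.

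The element can be read in some members' promoters, and a few of these stretches are shown because members of both classes hold it. RefSeq promoter windows on GRCm38.p6 run from 250 bases before to 50 bases after the start of each gene. The core GAAANNGAAA, or its reverse complement TTTCNNTTTC, was found in 13 of the 25 type I members with a window (52%) and in all 6 of the gamma-type members with one. Over all 27025 genes with a window, 3.99% held it. The GAS core TTCNNNGAA, which reads the same on both strands, was found in 4 of 25 type I members (16%) and 3 of 6 gamma-type members (50%), against 9.55% of all genes. The 12 type I members with a window and no ISRE core were Ifit2, Irf7, Irf9, Oasl1, Oasl2, Ifi44, Xaf1, Cmpk2, Samd9l, Phf11d, Herc6 and Lgals3bp. Usp18, Rtp4, Ifi27l2a, Zbp1, Dhx58, Parp14 and Iigp1 had no window. A match is a description of the letters and not evidence of binding. Capitals mark the ISRE core on either strand, and overlapping cores run together.
Isg15: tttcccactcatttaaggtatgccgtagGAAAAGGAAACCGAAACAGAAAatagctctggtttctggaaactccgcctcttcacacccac
Ifit1: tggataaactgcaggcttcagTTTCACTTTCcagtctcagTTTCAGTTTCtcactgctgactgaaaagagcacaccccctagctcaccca
Ifit3: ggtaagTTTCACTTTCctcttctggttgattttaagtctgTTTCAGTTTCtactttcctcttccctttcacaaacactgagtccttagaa
Rsad2: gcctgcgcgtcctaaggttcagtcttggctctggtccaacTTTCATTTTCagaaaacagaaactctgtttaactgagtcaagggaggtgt
Gbp7: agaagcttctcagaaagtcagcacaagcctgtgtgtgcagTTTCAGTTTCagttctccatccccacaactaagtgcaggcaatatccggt
Igtp: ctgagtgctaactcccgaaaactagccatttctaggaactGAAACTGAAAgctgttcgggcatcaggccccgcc
Each is written 5′ to 3′ on the strand of its gene. The stretch of Isg15 lies at chr4:156200835-156200924 on the minus strand and holds 3 overlapping cores, the nearest beginning 66 bases before the start. That of Ifit1 lies at chr19:34640764-34640853 on the plus strand, with 2 cores, and that of Ifit3 at chr19:34583367-34583456 on the plus strand, also with 2. That of Rsad2 is at chr12:26456523-26456612 on the minus strand, that of Gbp7 at chr3:142530243-142530332 and that of Igtp at chr11:58199482-58199555, both on the plus strand, with 1 core each. Ifit3b, the tandem copy of Ifit3, has the same 90 bases as Ifit3 at chr19:34607763-34607852.

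After filtering, the libraries held 4090 to 6325 cells and 13937090 to 28716767 molecules (unique molecular identifiers, UMIs), with median UMIs per cell from 2678.5 to 3753. The lowest total and the lowest median both belonged to Cth-/- cystine-free. Between 40 and 69 cell barcodes were shared by any pair of libraries. Cth itself gave 8 and 9 UMIs in the Cth+/+ libraries and 0 in both Cth-/- libraries. Cells were assigned to gates by marker UMIs: Dcn at 0.2% or more of a cell's UMIs for progenitors (1573 to 3222 cells a library), 3 or more UMIs of Cdh5, Pecam1 and Cldn5 for endothelial cells (510 to 1246), and 4 or more of Csf1r, Cd68 and Lyz2 for phagocytes (776 to 1127). Further markers were read as a check of these names. The 6 further progenitor markers summed to between 6431 and 17900 CPM (UMIs of a gene per 1000000 UMIs of the gate) in the progenitor gate, the further endothelial markers to between 3640 and 4428 in the endothelial gate, and the further phagocyte markers to between 7364 and 8081 in the phagocyte gate. Gates are not exclusive: 13.3 to 38.2% of endothelial cells also passed another gate, against 2.82 to 3.18% of progenitors. Dcn reached 412 to 1048 CPM in T cells, against 8971 to 10731 in progenitors. Of the T cells 5.45 to 9.96% also passed another gate, so doublets and free RNA cannot be told apart in that level.

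The members differed in where they were highest. Levels are given as CPM and are compared for 1 gene between gates. By the mean over the 4 libraries, 24 of the 38 members were highest in endothelial cells, 10 in phagocytes and 4 in progenitors. The endothelial 24 included all 7 gamma-type genes. Iigp1, a GTPase that attacks the vacuoles of intracellular pathogens, had a mean of 426 CPM in endothelial cells (242 to 655 over the libraries). It had 74.9 in progenitors (52.1 to 88.7) and 35.2 in phagocytes (18.6 to 41.8), so the endothelial range lay above both. In the gate set by Rgs5 and Notch3, described below, Iigp1 had 293 (231 to 423), which overlaps the endothelial range. Rsad2, which encodes the antiviral enzyme viperin, had a mean of 193 in endothelial cells (135 to 234), 83.7 in phagocytes (33.6 to 133) and 19.3 in progenitors (11.8 to 27.9). Slfn5, a Schlafen family gene, stood at 626 to 1927 CPM in endothelial cells, 501 to 1230 in the Rgs5/Notch3 gate and 120 to 236 in phagocytes. Ifi27l2a, a small hydrophobic protein gene, was highest in phagocytes, at a mean of 2151 (1224 to 2874), against 1242 in progenitors (768 to 1635). The 4 members highest in progenitors were Ifit1, Ifit3, Usp18 and Lgals3bp. Ifit1, which binds RNA lacking the host cap modification, averaged 82.7 there (39.4 to 121) and 69.7 in endothelial cells (44.9 to 93.4), and these ranges overlap.

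In progenitors, the fibroblast-like cells from which adipocytes form, nearly every type I member was lower on the cystine-free diet in both genotypes. In Cth+/+ mice, 13 of the 27 type I members measured were lower by 1.5-fold or more, none was higher by that size, and the median of their log2 ratios was -0.56. Over all 8193 genes measured in that comparison, 1.32% were at least 1.5-fold lower, 1.22% were higher and the median was -0.08. All 27 ratios were negative, and the counting interval lay below 0 for 26. The count of 13 was 6 of 26 by the mean over cells and 6 of 28 without a gate (background 2.26%). It was 7 of 27 with a pseudocount of 10 and 8 of 27 in cells thinned to 1000 UMIs. In Cth-/- mice, 11 of 28 were at least 1.5-fold lower, 0 were that much higher, and the median was -0.51. There the background was much wider: 9.99% of 8291 genes were lower and 8.58% higher, with a median of 0.00. A gene counts as measured at 10 CPM or more in either library and 20 UMIs over both. Ratios are log2 of CPM + 1, the interval is exact and uses no pseudocount, and 1.5-fold is a size and not a test. Of the 31 type I members, Oasl1, Ifi44 and Dhx58 were not measured in any progenitor comparison, and Ifit3b and Oas1a only in some. The 4 comparisons share libraries, so they are not independent of each other.

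Ifitm3, Bst2, Ifi27l2a and Lgals3bp are abundant and made up 74.2 to 76.3% of the type I UMIs in progenitors. The other 27 type I members are therefore summed without them, and this sum is called the 27-gene sum below. It stood at 1469 CPM in Cth+/+ control, 959 in Cth+/+ cystine-free, 1348 in Cth-/- control and 876 in Cth-/- cystine-free. Both control libraries were above both cystine-free libraries. The log2 ratio of the sum was -0.61 (-0.65 to -0.58) for the diet in Cth+/+ and -0.62 (-0.67 to -0.58) in Cth-/-. The 7-gene gamma-type sum was 273, 193, 258 and 274 in the same order, so its 1 low library was Cth+/+ cystine-free. Other measures moved with the libraries. Erythrocyte markers summed to 1251, 2286, 651 and 82.7 CPM in the progenitor gate, NK cell markers to 4.19, 4.59, 2.84 and 15.5, and immediate early genes took a median of 2.38, 2.69, 2.54 and 3.66% of a cell's UMIs. Their part in the result was not tested. The plot of member levels in progenitors shows the single genes behind these sums.

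**Figure D1:**
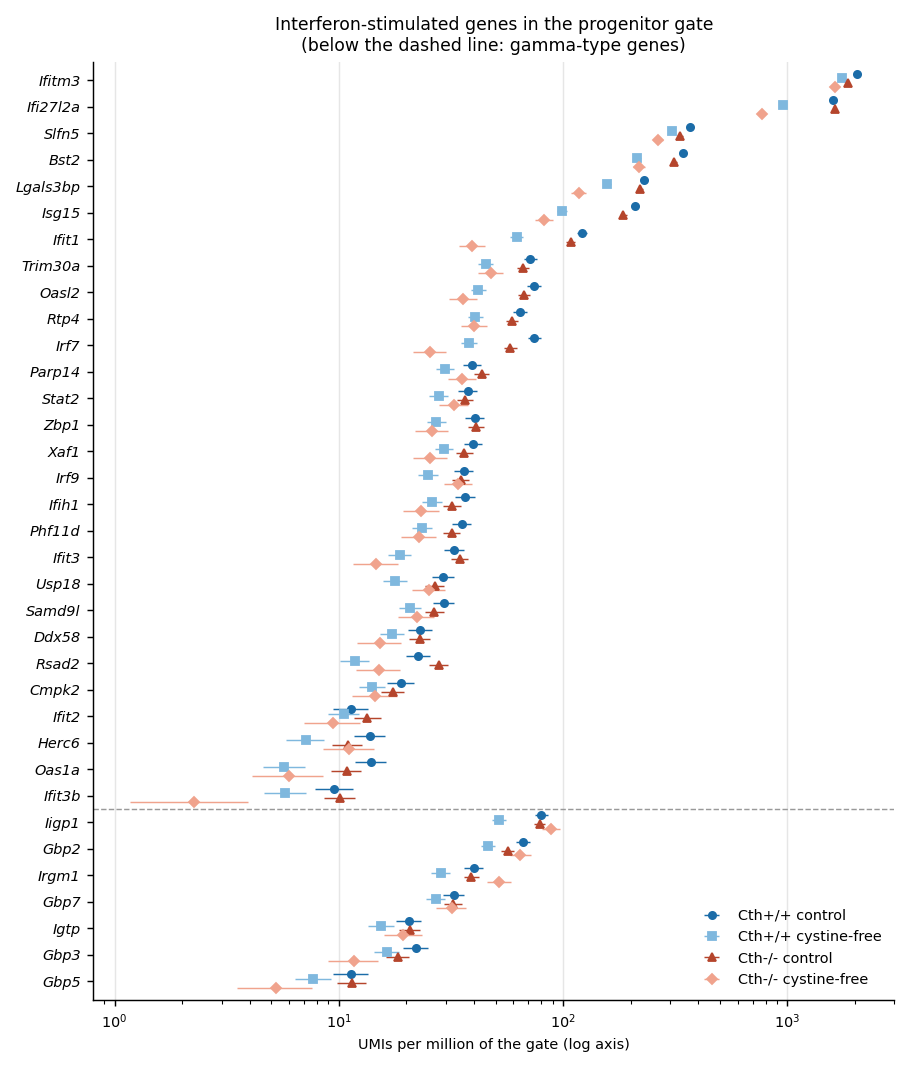
Level of the 35 members that reach 10 CPM in at least 1 library, in progenitor cells of each of the 4 libraries (x axis: CPM on a log scale; points are libraries and bars are 95% counting intervals). For most of the 28 type I genes both control libraries lie to the right of both cystine-free libraries, as for Isg15 at 209 and 186 against 98.5 and 82.5, while 5 of the 7 gamma-type genes (Gbp2, Gbp7, Irgm1, Igtp and Iigp1) are lowest in Cth+/+ cystine-free.

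Isg15, a ubiquitin-like protein that is attached to other proteins, stood at 209 CPM in Cth+/+ control, 98.5 in Cth+/+ cystine-free, 186 in Cth-/- control and 82.5 in Cth-/- cystine-free. Its 2 control libraries lay well above its 2 cystine-free libraries. The log2 ratio for the diet was -1.08 (-1.18 to -0.99) in Cth+/+ and -1.16 (-1.32 to -1.02) in Cth-/-. Ifit1 stood at 121, 62.2, 108 and 39.4 in the same order, with ratios of -0.95 (-1.09 to -0.84) and -1.43 (-1.67 to -1.25). Ifit3, its partner in the same RNA-binding complex, had 32.6, 18.7, 34.7 and 14.7 CPM and ratios of -0.77 and -1.19. The fourth level of both genes, in Cth-/- cystine-free, was their lowest. Ifit2, their neighbour in the cluster at positions 34550694 to 34650009 of chromosome 19, was at 11.3, 10.6, 13.4 and 9.42, and its interval in Cth+/+ included 0 (-0.44 to 0.25). Ifit3b had the lowest ratio of any type I member in Cth-/-, -1.77 (-3.15 to -1.32), from 10.1 and 2.26 CPM.

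Usp18 and Herc6 did not follow Isg15 in both genotypes. Usp18 removes ISG15 from proteins and blocks the type I receptor. It had 29.2 CPM in Cth+/+ control, 17.9 in Cth+/+ cystine-free, 26.8 in Cth-/- control and 25.2 in Cth-/- cystine-free. The diet ratio was -0.68 (-0.95 to -0.47) in Cth+/+ and -0.08 (-0.38 to 0.20) in Cth-/-. Herc6, the ligase that attaches ISG15 in the mouse, had 13.7, 7.11, 10.96 and 11.12, with ratios of -0.86 (-1.32 to -0.58) and 0.02 (-0.43 to 0.46). For both genes the Cth-/- libraries were alike within counting error and only Cth+/+ cystine-free stood below the rest.

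Of the transcription factors, Irf7, which amplifies type I interferon production, had 74.5, 38.2, 58.2 and 25.4 CPM in the order above. Both cystine-free libraries were lower, with ratios of -0.94 (-1.12 to -0.81) in Cth+/+ and -1.16 (-1.46 to -0.93) in Cth-/-. Irf9, the DNA-binding part of ISGF3, had 36.1, 24.9, 35.0 and 34.1, with ratios of -0.52 (-0.74 to -0.33) and -0.04 (-0.29 to 0.21). Stat2, its partner, had 37.6, 27.9, 36.6 and 32.6, with ratios of -0.42 and -0.16. Irf9 and Stat2 were thus within 1.5-fold in both genotypes.

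Among the antiviral effectors, Rsad2 had 22.6, 11.8, 27.9 and 15.1 CPM, with diet ratios of -0.89 (-1.23 to -0.66) in Cth+/+ and -0.84 (-1.25 to -0.54) in Cth-/-. Cmpk2, a nucleotide kinase whose gene lies beside Rsad2 on chromosome 12, had 18.9, 14.1, 17.4 and 14.5, with ratios of -0.40 and -0.25. Oasl2, of the oligoadenylate synthetase family that senses double-stranded RNA, had 74.3, 41.9, 66.7 and 35.99, with ratios of -0.81 and -0.87. Oas1a, of the same family, was the lowest type I member by ratio in Cth+/+, at 13.9, 5.72, 10.8 and 6.03 CPM and -1.15 (-1.68 to -0.89). Its reads are uncertain, because 56.1% of the 50-base words at its 3′ end occur in other genes, chiefly Oas1g. The same holds in part for Phf11d (25.3%), Herc6 (24.5%), Trim30a (19.9%), Ifit3 (14.9%, shared with Ifit3b) and Ifitm3 (13.97%).

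Among the sensors of foreign nucleic acid, Ddx58, which encodes the RNA sensor RIG-I, had 23.1, 17.3, 22.95 and 15.3 CPM, with diet ratios of -0.40 in Cth+/+ and -0.56 in Cth-/-. Ifih1, which encodes MDA5, had 36.6, 26.1, 32.0 and 23.4, with ratios of -0.47 and -0.44. Zbp1, a sensor of Z-form nucleic acid, had 40.3, 27.2, 40.9 and 26.002, with ratios of -0.55 (-0.77 to -0.37) and -0.64 (-0.93 to -0.39). Each sensor had both cystine-free libraries below both control libraries.

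Of the abundant members, Ifi27l2a differed most. It had 1601 CPM in Cth+/+ control, 962 in Cth+/+ cystine-free, 1635 in Cth-/- control and 768 in Cth-/- cystine-free. The ratios were -0.73 (-0.77 to -0.70) and -1.09 (-1.14 to -1.04). Bst2, which tethers budding virus to the cell membrane, had 344, 214, 314 and 218, with ratios of -0.68 and -0.52. Lgals3bp, a secreted glycoprotein, had 229, 157, 221 and 118, with ratios of -0.54 and -0.90. Ifitm3, which blocks virus entry at endosomes, had 2040.5, 1754, 1871 and 1625 and ratios of -0.22 and -0.20. In all 4 genes both cystine-free libraries were below both control libraries. The remaining type I members measured, Rtp4, Xaf1, Trim30a, Parp14, Samd9l, Phf11d and Slfn5, had ratios from -0.65 to -0.27 in Cth+/+ and from -0.55 to -0.25 in Cth-/-.

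The gamma-type members were lower on the diet as a set in Cth+/+, and had no common direction in Cth-/-. In Cth+/+ mice all 7 had negative ratios (median -0.47) and 1, Iigp1, was at least 1.5-fold lower (background 1.32%). That call was lost under 8 other settings, among them all deposited barcodes, no doublet removal and the mean over cells. In Cth-/- mice the median was -0.02, with 2 of 7, Gbp3 and Gbp5, at least 1.5-fold lower (background 9.99%). Iigp1 had 80.0 CPM in Cth+/+ control, 52.1 in Cth+/+ cystine-free, 78.9 in Cth-/- control and 88.7 in Cth-/- cystine-free. Irgm1, which steers autophagy and restrains other GTPases of its family, had 39.9, 28.5, 39.1 and 52.0. Both genes were lowest in Cth+/+ cystine-free and highest in Cth-/- cystine-free. Diet ratios of Irgm1 were -0.47 (-0.68 to -0.29) in Cth+/+ and 0.40 (0.20 to 0.62) in Cth-/-. Gbp2, a GTPase that coats pathogen vacuoles, had 66.5, 46.3, 56.7 and 64.6 CPM and ratios of -0.51 and 0.18. Gbp5, which promotes inflammasome assembly, went the other way in Cth-/-, at 11.3, 7.71, 11.5 and 5.28 CPM and ratios of -0.50 and -0.99.

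Loss of Cth on its own went with small differences in progenitors. On the control diet, 0 of the 28 type I members measured were at least 1.5-fold lower or higher (background 1.39% lower and 0.841% higher), with a median of -0.12 beside -0.06 over all genes. Irf7 had the lowest ratio, -0.35 (-0.49 to -0.22), and Rsad2 the highest, 0.29. On the cystine-free diet, 1 of 26 type I members was at least 1.5-fold lower and none that much higher, where 11.3% of all genes were lower and 11.3% higher. That gene was Ifit1, at -0.65 (-0.88 to -0.44). The median was -0.09. Herc6 at 0.58 (0.16 to 1.12), Usp18 at 0.47 and Irf9 at 0.44 had intervals above 0. The gamma-type members had medians of -0.02 on the control diet and 0.39 on the cystine-free diet, where Irgm1 (0.85, 0.65 to 1.09) and Iigp1 (0.76, 0.60 to 0.94) were the 2 of 6 at least 1.5-fold higher.

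**Figure D2:**
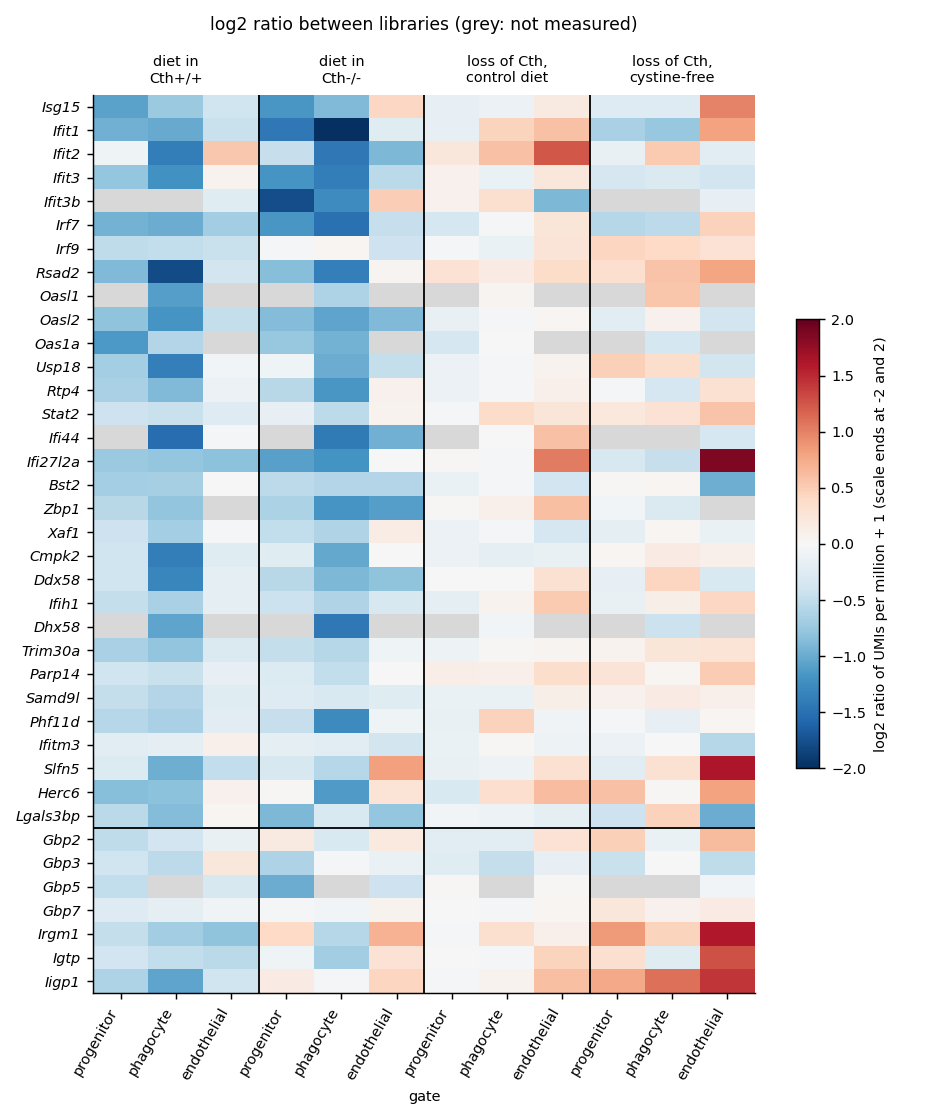
Log2 ratio of each of the 38 members (rows) in the 4 comparisons and 3 gates (columns), on a colour scale from -2 to 2, with grey where a member was not measured. The 2 diet columns are mostly on the lower side for type I genes in progenitors and phagocytes, at medians of -0.56, -0.51, -0.84 and -0.99, and mixed in endothelial cells.

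Progenitors were then divided by Pi16 and Dpp4, markers of the interstitial progenitors that lie furthest from the adipocyte fate, at 2 or more UMIs of the pair. The division was chosen after the values had been seen. The Pi16/Dpp4 cells made up 31.7% of progenitors in Cth+/+ control, 38.01% in Cth+/+ cystine-free, 39.5% in Cth-/- control and 48.1% in Cth-/- cystine-free, beside median UMIs per progenitor of 3276.5, 4551, 4379 and 3074. Their 27-gene sum was 1772, 1104, 1776 and 819 CPM in that order. In the other progenitors it was 1253, 849, 970.1 and 951. The lower sum on the diet in Cth-/- mice lay in the Pi16/Dpp4 cells, where its log2 ratio was -1.12 (-1.18 to -1.06), against -0.03 (-0.10 to 0.04) in the other progenitors. In Cth+/+ mice the ratios were -0.68 and -0.56, close to each other.

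The member counts show the same division. On the diet in Cth-/- mice, 23 of 28 type I members were at least 1.5-fold lower in Pi16/Dpp4 cells (background 9.46%, median -0.91), against 4 of 26 in the others (background 13.5%, median -0.02). In Cth+/+ mice it was 15 of 29 (background 2.28%, median -0.68) and 13 of 26 (background 2.75%, median -0.58). Isg15 had 280.1, 118, 269 and 67.7 CPM in Pi16/Dpp4 cells and 158, 83.9, 112 and 102 in the others. Single members were still lower on the diet in the other progenitors of Cth-/- mice. Ifi27l2a, which is not in the 27-gene sum, had 748 CPM in Cth-/- control and 326 in Cth-/- cystine-free, and Ifit1 had 85.2 and 53.1. Slfn5 went the other way, at 294 and 322, and 0 of 26 were at least 1.5-fold higher (background 13.4%). In the others the control library of Cth-/- was itself low, so that the type I median for loss of Cth on the control diet was -0.38 there, with 2 of 27 at least 1.5-fold lower (background 2.56%), beside -0.01 in Pi16/Dpp4 cells. Irf7 was higher in Pi16/Dpp4 cells in every library, at 126, 68.3, 96.0 and 33.7 against 37.6, 15.4, 24.8 and 14.5.

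Gamma-type members went in opposite directions in and outside the Pi16/Dpp4 cells of Cth-/- mice, a difference that was not tested. In Pi16/Dpp4 cells, 3 of 6 were at least 1.5-fold lower on the diet in Cth+/+ (background 2.28%, median -0.58) and 3 of 7 in Cth-/- (background 9.46%, median -0.31). Outside them, 0 of 7 were lower in either genotype. There, Irgm1 had 41.1, 30.2, 39.6 and 76.7 CPM and Iigp1 had 88.3, 58.6, 81.4 and 122. Cth-/- cystine-free was the highest library for both. For the diet in Cth-/-, 2 of 7 gamma-type members were at least 1.5-fold higher (background 13.4%, median 0.51), and for loss of Cth on the cystine-free diet 4 of 6 (background 16.8%, median 0.71). Endothelial markers moved with this: the 6 further endothelial markers summed to 90.3, 79.6, 43.6 and 114.9 CPM in these cells, and 4.28% of them in Cth-/- cystine-free passed another gate. With only cells that pass no other gate, the gamma-type sum outside Pi16/Dpp4 was 346 CPM in Cth-/- cystine-free against 244 in Cth-/- control, and the 27-gene sum was 1239.7, 852, 951 and 910.1.

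**Figure D3:**
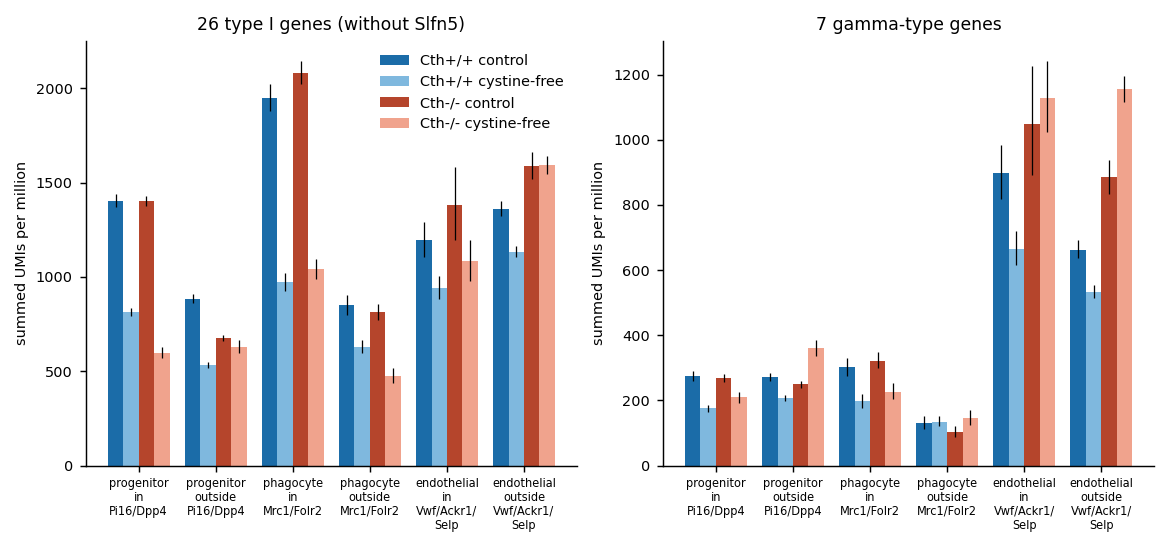
Summed level in CPM of 26 type I genes (the 27-gene sum without Slfn5) and of the 7 gamma-type genes, in cells in and outside a subgate of progenitors, phagocytes and endothelial cells, by library (bars, starting at 0, with 95% counting intervals). For type I genes, the Pi16/Dpp4 progenitors and the Mrc1/Folr2 phagocytes have the widest gaps between control and cystine-free bars, as at 1403 against 815 CPM in Pi16/Dpp4 cells of Cth+/+. The widest gamma-type gap is in Cth-/- endothelial cells outside Vwf/Ackr1/Selp, where the control bar is the lower, at 885 against 1155 CPM.

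In phagocytes the type I members were lower on the diet by more than in progenitors. In Cth+/+ mice, 26 of the 30 measured were at least 1.5-fold lower and none that much higher (background 7.18% lower, 2.84% higher), with a median of -0.84 beside -0.10 over all genes. In Cth-/- mice, 23 of 31 were lower and 0 higher (background 8.1% lower, 5.56% higher), with a median of -0.99 beside -0.04. At a minimum of 30 CPM the counts lower were 17 and 15. That setting leaves fewer members, so these counts cannot be set directly beside 26 and 23. Over all cells without a gate they were 6 of 28 (background 2.26%) and 9 of 27 (background 8.56%). The 27-gene sum was 1703 CPM in Cth+/+ control, 891 in Cth+/+ cystine-free, 1735 in Cth-/- control and 934 in Cth-/- cystine-free. The 2 genotypes were close to each other on each diet. Loss of Cth had a median of -0.00 on the control diet, with 0 of 31 called in either direction (background 2.84% lower, 2.71% higher). On the cystine-free diet it was 0.05, with 1 of 29 lower, again Ifit1 (background 7.5%), and 0 higher (background 11%).

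Rsad2 had the largest difference in Cth+/+ phagocytes. It stood at 118 CPM in Cth+/+ control, 33.6 in Cth+/+ cystine-free, 133 in Cth-/- control and 50.6 in Cth-/- cystine-free, with ratios of -1.78 (-2.11 to -1.52) and -1.37 (-1.67 to -1.11). Ifit1 had the largest in Cth-/-, at 43.2, 21.1, 59.2 and 12.1 CPM and a ratio of -2.20 (-2.87 to -1.75) in that genotype. Irf7 had 106, 52.7, 104 and 36.3 CPM, with ratios of -0.998 and -1.49. In all 3 genes both control libraries were more than 1.5-fold above both cystine-free libraries. The 3 members too low for progenitors were measured here: Oasl1 had 42.8, 19.3, 44.6 and 28.7 CPM, Ifi44 had 22.9, 7.27, 22.8 and 7.94, and Dhx58, a regulator of the RNA sensors, had 25.1, 11.5, 24.1 and 8.31. All 3 were at least 1.5-fold lower on the diet in both genotypes. Oasl2 had 116, 50.7, 114 and 54.0, Isg15 had 162, 96.1, 149 and 80.5, and Zbp1 had 70.8, 40.4, 75.8 and 32.9.

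Some members stood apart in phagocytes. Irf9 was not lower in Cth-/-, at 46.5, 32.9, 42.3 and 43.5 CPM and ratios of -0.49 and 0.04 (-0.32 to 0.39), as in progenitors. Ifitm3 again had small ratios, -0.18 and -0.21. Of the 6 gamma-type members measured, 2 were at least 1.5-fold lower on the diet in Cth+/+ (background 7.18%, median -0.51). In Cth-/- it was 1 (background 8.1%, median -0.18). Iigp1 had 39.8, 18.6, 41.8 and 40.8 CPM, so its low library was Cth+/+ cystine-free. It was the 1 gamma-type member at least 1.5-fold higher with loss of Cth on the cystine-free diet (1.10, 0.70 to 1.58, background 11%).

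Phagocytes rich in Mrc1 and Folr2, markers of resident tissue macrophages, had higher type I levels and a larger difference than the phagocytes outside that split. At 3 or more UMIs of that pair, the 27-gene sum was 2257, 1122, 2367 and 1207 CPM, against 993, 729, 956 and 600.1 in the other phagocytes. For the diet, 25 of 31 type I members in Cth+/+ (background 8.03%, median -0.92) and 23 of 31 in Cth-/- (background 10.8%, median -1.03) were at least 1.5-fold lower among Mrc1/Folr2 cells. Among the others it was 9 of 26 lower and 2 higher in Cth+/+ (background 9.86% lower, 5.25% higher, median -0.42) and 14 of 26 lower in Cth-/- (background 13%, median -0.67). The Mrc1/Folr2 cells were 57.8, 48.8, 62.6 and 63.0% of the gate. The lower sum on the diet was not particular to them. Other subgates, which can share cells with them, had it too. At 2 or more UMIs of Ccr2 and Ly6c2 the 27-gene sum was 1456, 785, 1479 and 626 CPM. At 1 or more UMIs of Cd209a it was 1597, 786, 1698 and 891. The progenitor markers summed to 881, 943, 1084 and 220.3 CPM in the phagocyte gate, and immediate early genes took a median of 2.13, 1.61, 2.37 and 3.17% of a cell's UMIs. Their part in the result was not tested.

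In endothelial cells the differences on the diet were smaller for most members. The type I members had a median of -0.21 for the diet in Cth+/+, with 2 of 27 at least 1.5-fold lower (background 3.3%) and 0 higher (background 2.66%). In Cth-/- the median was -0.24, with 6 of 28 lower (background 9.15%) and 1 higher (background 5.43%). The median and the sum had opposite signs there: the 27-gene sum was 2222, 1729.7, 2663 and 3460.2 CPM over the 4 libraries, a ratio of 0.38 (0.32 to 0.43) for the diet in Cth-/-. Slfn5 took a large share of that sum. It stood at 884 CPM in Cth+/+ control, 626 in Cth+/+ cystine-free, 1096 in Cth-/- control and 1927 in Cth-/- cystine-free, and was 39.8, 36.2, 41.2 and 55.7% of the sum. Without Slfn5 the sum was 1338, 1104, 1567 and 1534. In Cth-/- its intervals overlapped (1502 to 1633 on the control diet, 1491 to 1577 on the cystine-free diet).

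Loss of Cth went with higher levels of some endothelial members. On the control diet, 6 of 28 type I members were at least 1.5-fold higher (background 5.25%) and 1 lower (background 4.62%), with a median of 0.24. The count of higher members was 2 with all deposited barcodes, without doublet removal or with a pseudocount of 10, and 3 by the mean over cells. On the cystine-free diet, 6 of 27 were higher (background 11.3%) and 2 lower (background 12.6%), with a median of 0.11. The shares lower were below that of all genes on both diets. On that diet the ratio of Ifi27l2a was 1.87 (1.75 to 2.00), from levels of 234, 132, 480.5 and 485 CPM over the 4 libraries. Slfn5 had 1.62 (1.56 to 1.68). Isg15, at 268, 204, 305 and 406, had 0.99 (0.88 to 1.10), and Rsad2, at 175, 135, 226 and 234, had 0.79. Each of these 4 was lowest in Cth+/+ cystine-free. The 2 lower members were Bst2 and Lgals3bp, at 592, 596, 453 and 302 CPM (-0.98) and at 119, 122, 105 and 60.6 (-0.9996), and were lowest in Cth-/- cystine-free.

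The gamma-type members showed the widest endothelial difference with loss of Cth on the cystine-free diet. There 4 of 7 were at least 1.5-fold higher (background 11.3%) and 0 lower, with a median of 0.64 beside -0.02 over all genes. Their sum was 694 CPM in Cth+/+ control, 554 in Cth+/+ cystine-free, 902 in Cth-/- control and 1152 in Cth-/- cystine-free. Irgm1 had 89.2, 50.9, 96.2 and 156 CPM. Its diet ratio was -0.80 (-1.03 to -0.58) in Cth+/+ and 0.70 (0.42 to 0.99) in Cth-/-, and its ratio for loss of Cth on the cystine-free diet was 1.60 (1.41 to 1.83). Iigp1 had 320.1, 242, 488 and 655, and Igtp, a further immunity-related GTPase, had 40.9, 27.8, 55.9 and 68.8, with ratios of 1.43 and 1.28 for that comparison. All 3 were lowest in Cth+/+ cystine-free and highest in Cth-/- cystine-free. Gbp2 was the fourth, at 84.4, 75.8, 103 and 119, while Gbp3 was lower (-0.51) and Gbp5 (-0.06) and Gbp7 (0.17) differed little.

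Other measures moved with the endothelial values. The mural markers Rgs5 and Notch3 summed to 1080.3, 1241, 894 and 366 CPM in the endothelial gate over the 4 libraries. Erythrocyte markers summed to 4171, 8083, 2196 and 541. Immediate early genes, which cell dissociation induces, took a median of 1.91, 1.76, 2.65 and 2.60% of a cell's UMIs. With loss of Cth on the cystine-free diet, 12 of 19 were at least 1.5-fold higher, beside the 4 of 7 gamma-type members (background 11.3%). Their part in the result was not tested. Over the 17 other settings tried, the gamma-type median for that comparison stayed between 0.32 and 0.96.

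The remaining gates held few cells or mixed ones. T cells (110 to 261 a library) had 27-gene sums of 623, 413, 609 and 349 CPM, with 10 to 15 type I members measured a comparison. On the diet, 5 of 15 were at least 1.5-fold lower in Cth+/+ (background 12.4%, median -0.25) and 3 of 10 in Cth-/- (background 16.9%, median -0.01), where 2 were higher (background 13%). Epithelial cells, at 121 to 194 a library, had the lowest sums, 279, 212, 244 and 228. There 7 of 15 were lower on the diet in Cth+/+ (background 9.02%, median -0.40) and 5 of 15 in Cth-/- (background 9.23%, median -0.09). For loss of Cth on the control diet, 3 of 16 were lower (background 3.55%) and 1 higher (background 5.62%).

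In cells with 4 or more UMIs of Rgs5 and Notch3, which mark mural cells of vessels, 81.1 to 92.3% also passed another gate. Their endothelial markers (1722 to 3289 CPM) exceeded the further mural markers (635 to 1043), so these cells are named by their 2 genes only. The type I median for the diet was 0.05 in Cth+/+, with 1 of 27 lower (background 8.3%) and 1 higher (background 5.31%), and 0.33 in Cth-/-, with 1 of 24 lower (background 12%) and 5 higher (background 16.2%). Cells that passed no gate had 27-gene sums of 748, 449, 1035 and 859. On the diet, 15 of 27 type I members were lower in them in Cth+/+ (background 9.44%, median -0.68) and 0 higher (background 5.97%), and 17 of 27 were lower in Cth-/- (background 17.6%, median -0.70). With loss of Cth on the control diet, 11 of 28 were at least 1.5-fold higher (background 14%, median 0.52).

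Interferon-stimulated genes were unevenly spread over cells. Each cell was thinned to 1000 UMIs so that depth did not set the shares, and 74 to 165 shallower progenitors a library were left out. Progenitors with 4 or more UMIs of the 27 genes were 8.57% (7.56 to 9.67) in Cth+/+ control, 4.48% (3.76 to 5.29) in Cth+/+ cystine-free, 8.197% (7.26 to 9.22) in Cth-/- control and 3.99% (3.05 to 5.11) in Cth-/- cystine-free. These cells held 42.0, 29.8, 42.1 and 28.1% of all UMIs of the 27 genes. Among the other progenitors the mean was 0.812, 0.690, 0.790 and 0.650 UMIs a cell. Both the share of high cells and the mean among the rest were thus lower in both cystine-free libraries, the share by the larger factor. Without thinning, cells with at least 1 such UMI were 81.4, 84.2, 84.3 and 76.2%, an order that follows depth as well.

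Phagocytes had a larger high share and a larger gap. Those with 4 or more UMIs were 18.5, 5.98, 17.2 and 5.57% in the 4 libraries, and held 59.9, 34.2, 60.5 and 34.3% of the UMIs. In endothelial cells they were 22.7, 13.7, 29.96 and 41.5%, highest in Cth-/- cystine-free. Without Slfn5 the endothelial shares were 9.65, 5.56, 10.4 and 11.9%, a narrower spread with the same library lowest. Endothelial cells with 4 or more gamma-type UMIs were 2.41% (1.60 to 3.49), 1.52% (0.902 to 2.39), 3.30% (1.86 to 5.39) and 10.1% (8.27 to 12.2), so Cth-/- cystine-free lay above the intervals of the other 3.

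**Figure D4:**
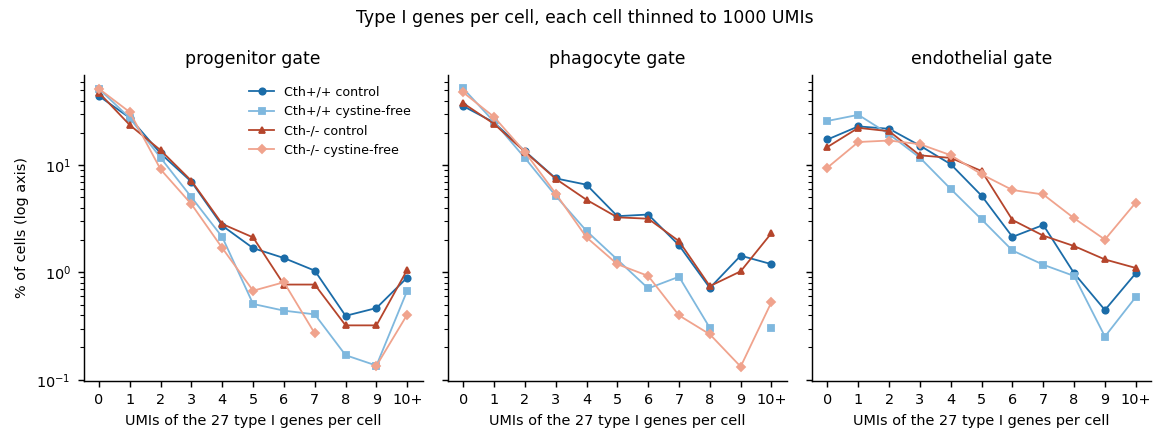
Percent of cells (log y axis) by UMIs of the 27 type I genes per cell thinned to 1000 UMIs (x axis, 0 to 10 or more), in 3 gates, with 1 line a library and a break where no cell was seen. In progenitors and phagocytes the control lines run above the cystine-free lines at high counts, as for 18.5 and 17.2% against 5.98 and 5.57% of phagocytes at 4 or more.

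The members were detected together. Progenitors with at least 1 Ifit3 UMI numbered 199, 154, 236 and 42 in the 4 libraries. In the 3 libraries other than Cth-/- cystine-free, 26 of 26, 25 of 26 and 26 of 26 measured genes of the 27 (Ifit3 itself left out) had a higher level in those cells than in the rest, with intervals above 0. In Cth-/- cystine-free, with only 42 such cells, it was 17 of 22. Median log2 ratios were 1.79, 1.90, 1.69 and 1.49. The 7 gamma-type members, which the choice of cells did not use, were higher in 7, 7, 7 and 4 of 7, with medians of 1.76, 2.12, 1.90 and 1.09. No member measured in progenitors had an interval below 0. Cells with an Ifit3 UMI were also deeper, at median UMIs of 5251, 5386, 6519 and 3926.5 against 3181, 4471, 4279 and 3062, and Ifit3 and Ifit3b share part of their 3′ ends.

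Ratios were smaller in endothelial cells. There the same counts were 13 of 25, 20 of 26, 9 of 21 and 15 of 24, with gamma-type medians of 0.48, 0.60, 0.62 and 0.50. In phagocytes they were 24 of 26, 20 of 25, 25 of 26 and 16 of 25. In phagocytes the gamma-type medians were 1.42, 2.09, 1.26 and 0.85.

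**Figure D5:**
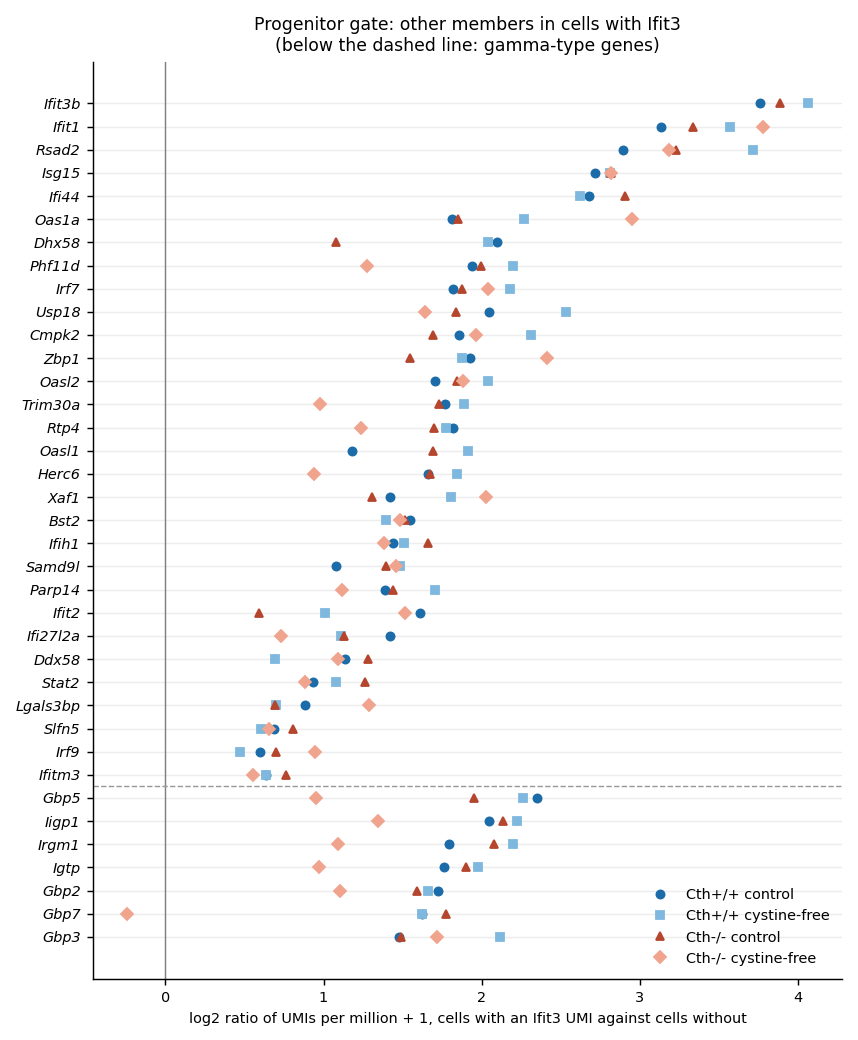
Log2 ratio of each member's level in progenitors with an Ifit3 UMI against progenitors without one, in the 4 libraries (points are members, by class). The medians of the type I genes without the 4 abundant ones lie between 1.49 and 1.90, and those of the 4 abundant genes between 0.907 and 1.15. Gamma-type medians lie between 1.09 and 2.12.

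Interferon transcripts themselves were scarce. Over all kept cells, Ifnb1 gave 1, 3, 5 and 1 UMIs, Ifng 6, 52, 27 and 22, and Ifna4 0, 0, 1 and 0. Ifna1, Ifna2, Ifna5, Ifne, Ifnl2 and Ifnl3 gave 0 in every library. A count of 0 is read with a floor of 3 UMIs, a one-sided limit and so lower than the upper end of the intervals, and no order of the libraries can be read from such counts for the type I interferons. Ifng was lowest in Cth+/+ control. Il18, a cytokine that drives interferon gamma production, gave 413, 489, 603 and 293 UMIs. These are raw counts, not scaled to the kept UMIs of the libraries (22695036, 28716767, 24402300 and 13937090). The order of the libraries for Il18, or for the remaining Ifng counts, therefore cannot be read from them.

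Among the receptors in progenitors, Ifngr2, a chain of the gamma receptor, had 81.4 against 43.7 CPM on the diet in Cth-/- (ratio -0.88, -1.10 to -0.69) and 89.1 against 74.5 in Cth+/+ (-0.26). Irf1, the factor that drives many gamma-type genes, had 348 against 254 in Cth+/+ and 459.5 against 308 in Cth-/-. Of the 8 negative regulators measured beside the members (Usp18, itself one, is described above), 0 were lower in either genotype and 2 were higher in Cth-/-, where 8.58% of all genes were. Among them was Socs3 (332 against 552, ratio 0.73).

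Interferon-stimulated genes outside the 38 had the same direction by median, at a smaller size. Of 48 other type I genes measured in Cth+/+ progenitors, 7 were at least 1.5-fold lower, 1 was that much higher, and the median was -0.40 (background 1.32% lower, 1.22% higher). In Cth-/- it was 7 of 47 lower and 4 higher, with a median of -0.16, the higher share being near the background (9.99% lower, 8.58% higher). Rnf213, a large ubiquitin ligase, had 67.6 against 39.0 CPM in Cth+/+ (-0.78) and 64.5 against 37.9 in Cth-/- (-0.75). Eif2ak2, the kinase PKR that stops translation on viral RNA, had ratios of -0.67 and -0.82. Ifi207, of the family of DNA-binding Ifi200 proteins, had 130.1 against 310.1 CPM in Cth-/- (1.25, 1.16 to 1.35) and 112 against 115 in Cth+/+ (0.04). Ifitm1, a relative of Ifitm3, went in opposite directions, at 141 against 219.6 in Cth+/+ (0.63) and 216 against 119 in Cth-/- (-0.85). In phagocytes of Cth+/+ mice 24 of 58 had at least 1.5-fold lower levels and 2 had higher ones (median -0.47, background 7.18% lower), against 27 of 58 lower and 0 higher in Cth-/- (median -0.52, background 8.1% lower). Slfn1, a Schlafen gene of leukocytes, had 26.2 against 8.78 CPM (-1.48) and 26.2 against 7.94 (-1.61).

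Interferons also induce antigen presentation genes. Of 19 class I and peptide supply genes measured in progenitors, 2 were at least 1.5-fold lower on the diet in Cth+/+ (median -0.16, background 1.32%) and 0 in Cth-/- (median 0.00, background 9.99%). Of 6 class II genes in phagocytes, 0 were at least 1.5-fold lower or higher on the diet in either genotype. In endothelial cells, 7 of 13 other gamma-induced genes were at least 1.5-fold higher with loss of Cth on the cystine-free diet and 0 lower, with a median of 0.71 (background 11.3% higher). Among them Irf1 had 302 against 594 CPM (0.97), Irgm2, a paralog of Irgm1, 20.8 against 46.1 (1.11), and Ido1, which breaks down tryptophan, 0.982 against 13.9 (2.91, 2.59 to 5.34).

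The genes outside the list whose pattern was most like that of the members were sought among broadly expressed genes. Levels were centred within each of the 6 gates over the 4 libraries, which gives 24 points that share libraries and depth, and 1497 genes expressed in every gate were compared with the mean of the 27 genes. The closest were Eif2s3x (Pearson r of 0.81), Elavl1 (0.78), Cltc (0.78), Ewsr1 (0.77) and Cflar (0.74). Most genes of the interferon lists are too low in some gate to be candidates, so that their absence among the 10 closest says nothing of them. By the same measure, each member was compared with the mean of the 27 genes, itself left out. Ifit1 (0.86), Cmpk2 (0.84), Ifi44 (0.82) and Irf7 (0.81) were the closest, and Gbp2 (0.04), Irf9 (0.21) and Gbp3 (0.21) the farthest. Gbp2 and Gbp3 are gamma-type genes and not among the 27, which are all type I genes.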

How the data were processed

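Droplet 3′ single-cell libraries of subcutaneous stromal vascular cells were deposited as matrices of UMI counts per gene and barcode, made by the authors with Cell Ranger on mm10 per the submitters' processing notes, version 3.0.0 per the file headers. Cells with at least 300 genes, at least 500 UMIs and at most 10% mitochondrial UMIs were kept. Doublet calls came from Scrublet (scanpy 1.11.5), whose expected rate was set to 0.8% per 1000 barcodes; this removed 40 to 139 cells a library. Gates and subgates were set by marker UMIs, as given with the results, and the counts of each gate were summed (python 3.11.15, numpy 2.4.6, scipy 1.17.1, pandas 2.3.3, figures with matplotlib 3.10.9). Intervals were exact: Poisson for levels, and for ratios binomial on the summed count. Kept libraries held 13937090 to 28716767 UMIs, which sets the precision of each level.

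With 1 library a group no test was made and no p-value is given. Scripts were tested on simulated data. The members, gene lists and rules were chosen with earlier results of these data known. All 38 members could be named, and otherwise only genes of the fixed lists, markers, Cth and the 10 genes most like the members. Alternatives changed the filters, doublet removal, gates, scaling, pseudocount and minimum level. Splits by Pi16/Dpp4, Mrc1/Folr2 and Vwf/Ackr1/Selp and sums without Slfn5 were added after seeing the data. Genes sharing 3′ ends were compared by 50-base words over their last 500 bases. A gene of the fixed lists is not reported here.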

Additional observations from a re-analysis of the deposited data

Results flagged for a closer look

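Irgm1 in endothelial cells had diet ratios of at least 1.5-fold in opposite directions in the 2 genotypes, each with a counting interval that excluded 0. Its log2 ratio for the diet was -0.80 (-1.03 to -0.58) in Cth+/+ mice and 0.70 (0.42 to 0.99) in Cth-/- mice, from levels of 89.2, 50.9, 96.2 and 156 CPM. Subtracting the Cth+/+ ratio from the Cth-/- ratio gave 1.49. With 1 library a group this difference was not tested.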

How the results depend on the processing

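No paired analysis was possible because each group had 1 library, and no library could be left out. Of the values answering a comparison, 372 under other settings stayed close to the reported ones and 60 moved; the cause was not tested. These cover the progenitor gate. In the other gates values moved as well: 68 in phagocytes, 52 in endothelial cells, 67 in T cells, 63 in epithelial cells and 78 in the Rgs5/Notch3 gate. For type I members on the diet in Cth+/+, the median was -0.44 with 6 of 26 lower by the mean over cells. It was -0.37 with 8 of 27 lower in cells thinned to 1000 UMIs. Over all kept cells without a gate it was -0.39 with 6 of 28 lower (background 2.26%). With a pseudocount of 10, 7 of 27 were lower. In Cth-/-, 1 of 27 was higher without a gate (background 10.3%). The median was -0.91 with 23 of 28 lower in Pi16/Dpp4 cells (background 9.46%). It was -0.024 with 4 of 26 lower outside them (background 13.5%). For loss of Cth on the control diet, 1 of 27 was lower after thinning and 1 of 29 higher in Pi16/Dpp4 cells (background 1.3%). Outside them the median was -0.38 with 2 of 27 lower (background 2.56%). For loss of Cth on the cystine-free diet, 11.3% of all genes were lower and 11.3% higher at the reported settings. Of 26 members, 1 was higher with all deposited barcodes, without doublet removal or with median-of-ratios scaling. The count was the same with totals without mitochondrial and ribosomal genes or with a pseudocount of 0.1. In the same comparison 2 of 26 were lower in cells passing no other gate, by the mean over cells, or with a pseudocount of 0.1. After thinning 2 of 26 were higher. With a pseudocount of 10, 0 of 26 were lower, and with no minimum level 4 of 31. Without a gate 0 of 26 were lower (background 8.26%) and 3 higher (background 9.16%). In Pi16/Dpp4 cells 4 of 26 were lower (background 10.3%). Outside them 0 of 25 were lower (background 15.1%) and 4 higher, near the background of 16.8%.

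For gamma-type members on the diet in Cth+/+, 0 were lower with all barcodes, without doublet removal, with doubled gate thresholds, by the mean over cells, with median-of-ratios scaling, with a pseudocount of 10, without a gate, or outside Pi16/Dpp4 cells. After thinning 2 of 7 were lower, and in Pi16/Dpp4 cells 3 of 6 (background 2.28%). In Cth-/-, 1 of 7 was lower with all barcodes or median-of-ratios scaling. It was 0 of 7 with a pseudocount of 10 and 0 of 4 at a minimum of 30 CPM. The median was 0.30 with 1 of 7 higher by the mean over cells, and -0.31 in Pi16/Dpp4 cells. Without a gate it was 0.36, with 0 of 7 lower (background 8.56%) and 2 higher (background 10.3%). Outside Pi16/Dpp4 cells it was 0.51, with 0 of 7 lower (background 13.5%) and 2 higher (background 13.4%). For loss of Cth on the cystine-free diet, 1 of 6 was lower in cells passing no other gate or after thinning. In Pi16/Dpp4 cells 0 of 6 were higher (background 8.99%). Outside them the median was 0.71 with 4 of 6 higher (background 16.8%). In the epithelial gate that median reversed, to -0.36, with no minimum level. The minimum level limits the low members: Oasl1, Ifi44 and Dhx58 reached at most 3.47, 5.43 and 7.04 CPM in progenitors, below the 10 CPM required.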
